A study of Homo sapiens with 2 samples.

Results

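The clustered protocadherins are cell surface proteins of the cadherin superfamily, encoded by 3 neighbouring gene clusters on the long arm of chromosome 5. Members were chosen by name and place: protein-coding genes of chromosome 5 whose GRCh37 symbol is PCDHA, PCDHB, PCDHGA, PCDHGB or PCDHGC followed by a number, together with PCDHAC1 and PCDHAC2. The rule gave 53 genes, with 15 in the alpha, 16 in the beta and 22 in the gamma cluster. Of these, 51 were matched by gene identifier to a value among the 57736 deposited identifiers. PCDHB16 and PCDHGB5 were not matched, which does not show that they were not measured, and were not analysed here. Below, a gene is called measured if it was matched in this way. The alpha cluster spans chr5:140165721-140391932, the beta cluster chr5:140430959-140628933 and the gamma cluster chr5:140710081-140892544 (GRCh37, plus strand).

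The study sequenced poly(A)+ RNA from HEK293T cells, a human embryonic kidney line, of wild type genotype as labelled. The 2 replicate libraries form a single group, so there is no comparison between conditions. The cells were untreated and grown in DMEM with fetal bovine serum. The labels do not say whether the replicates came from separate cultures. The p-values below set the difference between these libraries against counting error alone and do not measure a spread between cultures.

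In the alpha and gamma clusters, each member has its own promoter and its own large variable exon, which encodes the ectodomain, the transmembrane segment and the near part of the cytoplasmic tail. This exon is spliced to constant exons that all members of the cluster share, whereas a beta gene is typically a single exon with no constant part. In neurons, a small set of promoters is chosen in each cell, the proteins bind like to like between cells, and this gives a neuron an identity by which its own branches avoid each other. The C-type members (PCDHAC1, PCDHAC2, PCDHGC3, PCDHGC4 and PCDHGC5) lie at the end of their cluster and are known for more uniform expression.

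The constant exons decide how well reads of 50 bases can be assigned to a member, so their coding parts are shown first. They were read from the GRCh37 genome on the plus strand, 5′ to 3′, without the stop codon. The gamma exons hold 59, 89 and 224 coding nucleotides and are annotated in all 22 gamma genes, and the first pair of alpha exons holds 59 and 89 and is annotated in all 15 alpha genes.
Gamma constant exon 1, chr5:140874374-140874432: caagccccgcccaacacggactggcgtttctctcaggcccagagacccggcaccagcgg
Gamma constant exon 2, chr5:140884960-140885048: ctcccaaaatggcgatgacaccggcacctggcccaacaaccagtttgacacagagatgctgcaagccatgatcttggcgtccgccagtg
Gamma constant exon 3, chr5:140890514-140890737: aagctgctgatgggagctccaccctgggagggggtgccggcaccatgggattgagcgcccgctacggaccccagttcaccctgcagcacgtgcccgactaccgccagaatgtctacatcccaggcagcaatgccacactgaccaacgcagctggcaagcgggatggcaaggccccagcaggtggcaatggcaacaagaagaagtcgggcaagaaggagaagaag
Alpha constant exon 1, chr5:140358534-140358592: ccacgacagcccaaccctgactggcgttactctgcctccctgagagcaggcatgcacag
Alpha constant exon 2, chr5:140362060-140362148: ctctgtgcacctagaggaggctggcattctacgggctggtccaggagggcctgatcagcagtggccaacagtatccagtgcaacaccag

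A read that lies within one of these exons fits every member of its cluster. Every stretch of 50 nucleotides of the transcripts listed for a member was compared with those of all other genes. In the gamma cluster the share of such stretches found in no other gene had a median of 54.3% (45.2% to 62.9% over 21 members), and 2128 stretches occurred in every measured member. The alpha median was 43.1% over 15 members, with 2817 stretches in all of them. The lowest value was 1.55% for PCDHA10, and the next was 31.3% for PCDHA7. Sequence of each gene from PCDHA1 to PCDHA13 also occurred in the row of the pseudogene PCDHA14. The beta genes, without constant exons, had a median of 85.6% (55.7% to 98.2% over 15 members). Summed counts of a cluster do not depend on how shared reads are divided inside it, whereas single alpha and gamma values do. Summed TPM depends on it in part, since each count is divided by the length of the member that receives it.

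RNA of the clustered protocadherins was scarce in HEK293T cells, and most of it came from the gamma cluster. The summed TPM (a level per transcript length with an equal sum for each library) of all 51 members was 8.54 in replicate 1 and 7.38 in replicate 2. The gamma cluster held 7.76 and 6.45 TPM, the beta cluster 0.69 and 0.58, and the alpha cluster 0.09 and 0.35. As a share of the clustered protocadherin TPM, this was 89.1% ± 2.45 for gamma, 7.97% ± 0.156 for beta and 2.90% ± 2.61 for alpha (SD, n = 2). The order gamma over beta over alpha was the same in both replicates, and for alpha the SD was nearly as large as the mean. By the deposited posterior mean TPM the shares were 73.4% for gamma, 14.4% for beta and 12.3% for alpha.

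In expected counts (estimated reads, where a read matching more than a single gene is divided between the genes), the gamma cluster held 249.02 and 205.0, the beta cluster 14.9 and 12 and the alpha cluster 4.0 and 9.0. The gamma share of these counts was 92.9% (95% Wilson interval 89.2 to 95.4) in replicate 1 and 90.7% (86.2 to 93.8) in replicate 2. Intervals of this kind cover counting error only, since the libraries carried no molecular identifiers. The libraries held 10593491 and 10104118 expected counts over all genes.

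**Figure D1:**
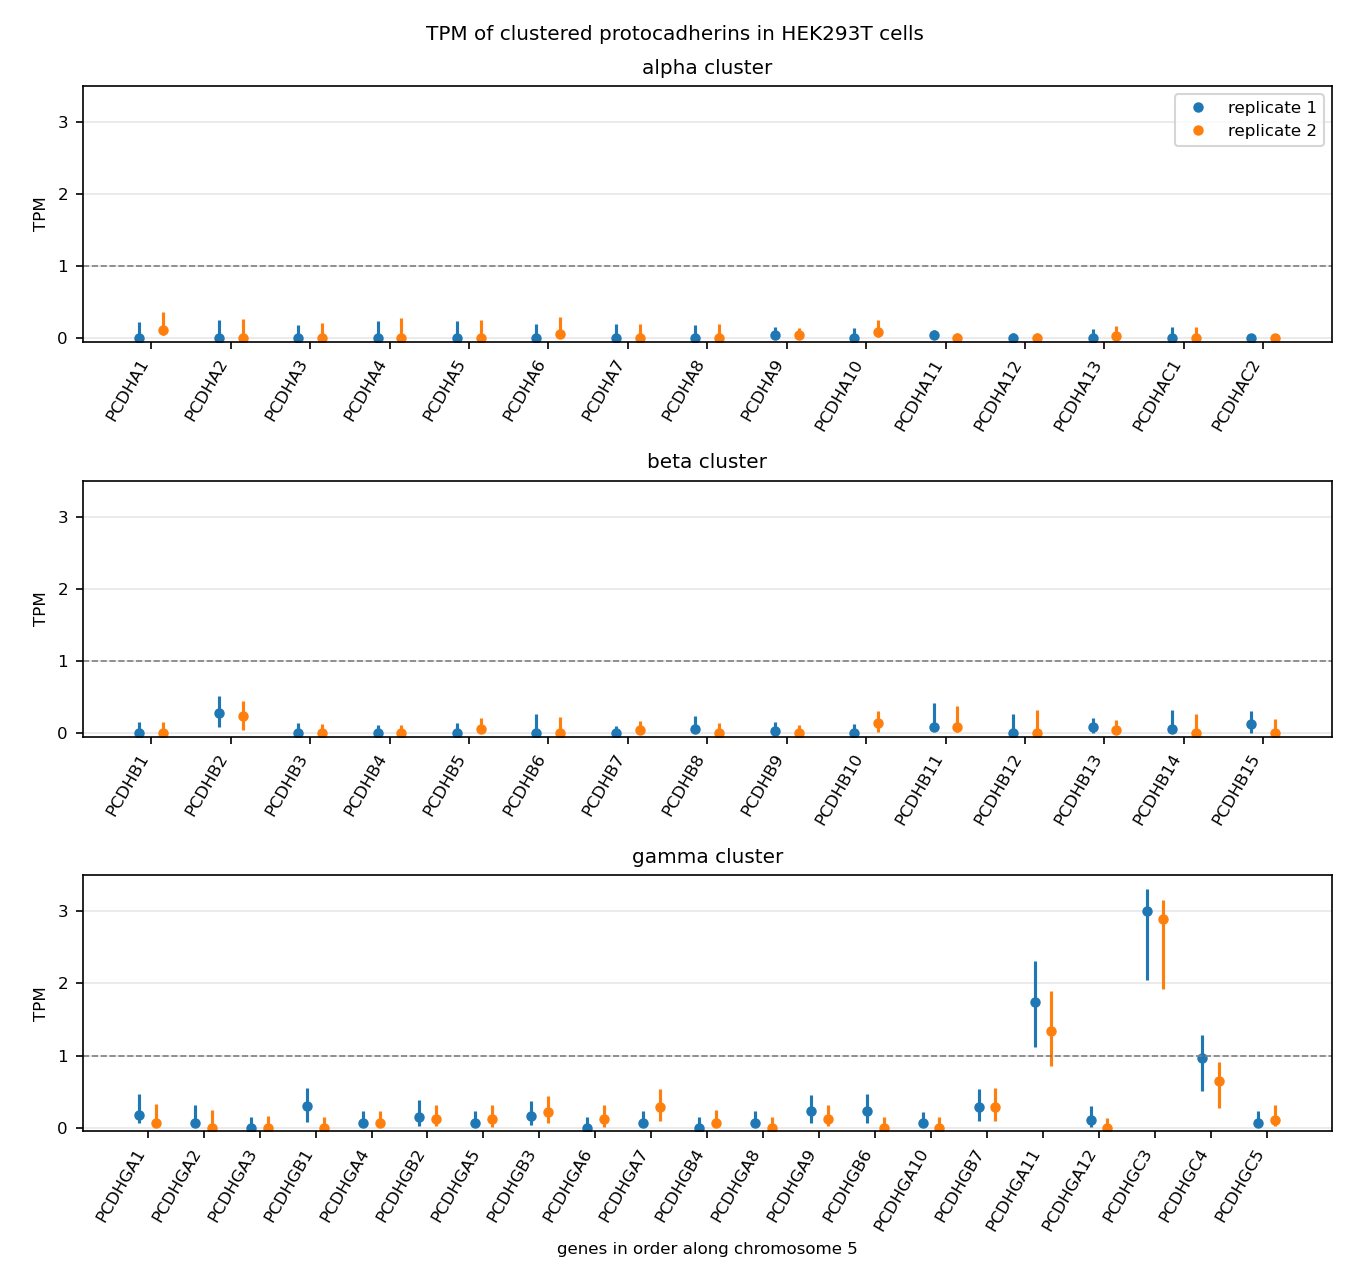
TPM of each measured member in HEK293T replicate 1 (blue) and replicate 2 (orange), in order along chromosome 5 within the alpha, beta and gamma clusters. Vertical lines are the deposited 95% intervals of TPM and the dashed line is 1 TPM. PCDHGC3 and PCDHGA11 lie above the line in both replicates, and no alpha or beta interval reaches it.

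Only 2 of the 51 members, PCDHGC3 and PCDHGA11, reached a TPM of 1 or more in each replicate. Among all 19391 protein-coding genes this was reached by 63.7%, and among all genes of the table by 27.7%. The median of the members' mean TPM was 0.03, beside 6.5 for all protein-coding genes. It was 0 in the alpha, 0.025 in the beta and 0.115 in the gamma cluster. By another rule, the lower bound of the deposited 95% TPM interval was at least 1 in both replicates for PCDHGC3 alone, a rule met by 64.1% of protein-coding genes. The deposited bounds belong to a posterior estimate and can lie above the TPM, as the lower bound did in at least 1 replicate for 6860 protein-coding genes. Expected counts above 0 in both replicates were found for 16 members (1 alpha, 3 beta and 12 gamma genes), beside 77.0% of protein-coding genes. Another 21 members had counts in 1 replicate and 14 had none in either (8 alpha genes, 5 beta genes and PCDHGA3). A count of 0 allows up to 3 counts, which for these 14 members corresponded to between 0.0679 and 0.168 TPM depending on length and library. Their deposited upper bounds ran from 0.0638 to 0.316 TPM and exceeded that limit in at least 1 replicate for 11 of the 14. Levels below these limits were not detectable at this depth.

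The highest value belonged to a C-type gene of the gamma cluster. PCDHGC3, whose cytoplasmic domain is known to bind the Wnt pathway scaffold AXIN1, had 104.63 expected counts in replicate 1 and 97.16 in replicate 2. The posterior SD of these counts, which describes the uncertainty of sharing out reads, was 6.87 and 6.42. Its TPM was 3.01 and 2.90, with deposited intervals of 2.05 to 3.31 and 1.92 to 3.15, and its mean stood above 42.5% of protein-coding genes. The highest clustered protocadherin therefore lay below the middle of the protein-coding genes.

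PCDHGC4, a gene required for the survival of developing neurons in mice, had 32.91 and 20.90 expected counts with posterior SDs of 4.73 and 3.76. Its TPM was 0.96 and 0.64, so it missed 1 TPM in both replicates. PCDHGC5 had 1.93 and 3.79 counts, with posterior SDs of 1.69 and 2.05. Together these 3 genes held 139.47 and 121.85 counts. Their summed TPM was 4.03 and 3.65, which was 48.3% ± 1.60 of the clustered protocadherin TPM (SD, n = 2). The C-type genes of the alpha cluster, PCDHAC1 and PCDHAC2, had 0 counts in both replicates, with upper bounds of their TPM intervals of at most 0.163.

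PCDHGA11 was the highest of the A- and B-type genes, with 42.65 and 35.61 expected counts and posterior SDs of 3.69 and 3.19. Its TPM was 1.74 and 1.34, with intervals of 1.12 to 2.31 and 0.853 to 1.90. PCDHGC3, PCDHGA11 and PCDHGC4 kept this order in both replicates. Their intervals nevertheless overlapped between neighbours in the order, except that PCDHGC3 and PCDHGA11 were just apart in replicate 2. The interval of PCDHGC4 also overlapped that of PCDHGB7, the next gene in mean TPM, in both replicates. PCDHGC3 took 42.2% (95% Wilson interval 36.2 to 48.4) and 47.3% (40.6 to 54.1) of the gamma counts, PCDHGA11 17.3% and 17.6%, and PCDHGC4 13.3% and 10.2%. The 3 genes together took 72.3% and 75.1%. The Wilson intervals of PCDHGC3 count shared reads divided among the members as its own, so they can be too narrow.

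PCDHGA11 also stood apart in its transcripts. The deposited length of a gene is the mean length of its transcripts weighted by their estimated abundance, and for PCDHGA11 it was 3335.14 nt in replicate 1 and 3748.4 nt in replicate 2. These values lie between its 4-exon transcripts, one of 4787 nt and one of 2263 nt in GENCODE, so reads were assigned to both. Among the 21 measured gamma members, PCDHGA11 was the only one with a listed transcript that carries the constant exons but ends early in the last of them, after 237 nt. The other 21 transcripts of this kind had a last exon of 2029 nt and were 4740 to 4854 nt long. The TPM of PCDHGA11 was thus computed over a shorter length than that of PCDHGC3 (4711 nt in both replicates). Whether this annotation has a part in its level was not tested.

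**Figure D2:**
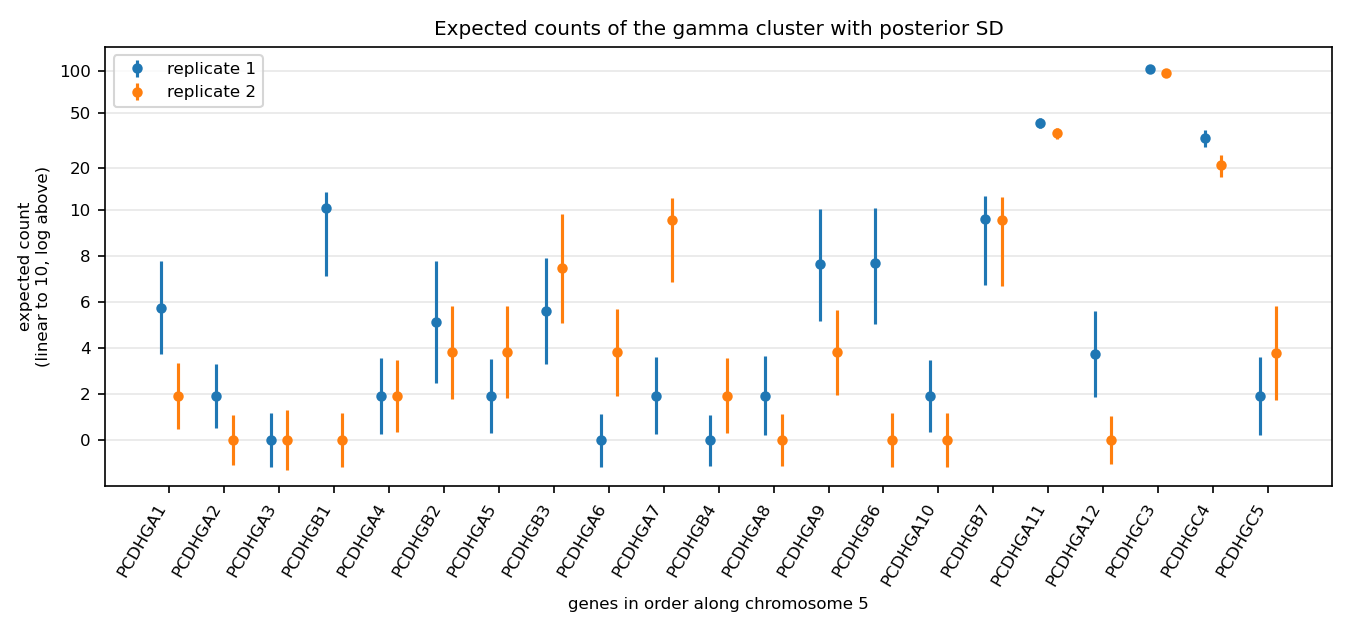
Expected counts of the 21 measured gamma members in replicate 1 (blue) and replicate 2 (orange), in order along the chromosome. Bars are the deposited posterior SD of the count, and the axis is linear up to 10 and logarithmic above. PCDHGC3, PCDHGA11 and PCDHGC4 stand at 20.90 counts or more in both replicates, while the other members stay at 10.26 or below.

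The other 18 measured gamma genes lay between 0 and 10.26 expected counts in either replicate. PCDHGB7 was the steadiest of those with the higher counts, at 9.60 and 9.55 (0.28 and 0.29 TPM). PCDHGB3 had 5.61 and 7.45 counts, and PCDHGA9 had 7.66 and 3.81. Several genes were uneven. PCDHGB1 had 10.26 counts in replicate 1 and 0 in replicate 2, PCDHGB6 had 7.67 and 0, and PCDHGA12 had 3.73 and 0, while PCDHGA7 had 1.92 and 9.54 and PCDHGA6 had 0 and 3.81. The remaining A- and B-type genes had at most 5.75 counts.

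These low gamma values came in steps, a pattern noticed after the data were seen. Leaving aside PCDHGC3, PCDHGA11 and PCDHGC4, the smallest value above 0 was 1.91 counts in each replicate. In replicate 1, 7 genes stood at 1.91 to 1.93 counts and 13 of 15 values were whole multiples of the step within 0.1 of a step, the exceptions being PCDHGB1 and PCDHGB2. In replicate 2, 3 genes stood at 1.91 to 1.92 counts and 11 of 11 values were whole multiples. The posterior SD at one step was 1.38 to 1.71 counts, which is close to the value itself. The gamma sums, in contrast, were whole or nearly so, at 249.02 and 205.0 counts. A single step is below the 3 counts that a count of 0 allows. The level of a member at one step could therefore not be told apart from that of a member at 0.

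The beta cluster gave small values that were spread over many genes. PCDHB2 was the highest, with 5.39 and 4.46 expected counts, posterior SDs of 0.39 and 0.65, and a TPM of 0.27 and 0.23. PCDHB11 (1.89 and 1.17 counts) and PCDHB13 (2.00 and 1.09 counts) were the other beta genes with counts in both replicates. PCDHB10 had 0 and 3.28 counts, and PCDHB15 had 2.40 and 0. PCDHB1, PCDHB3, PCDHB4, PCDHB6 and PCDHB12 had no counts in either replicate. No beta gene exceeded an upper bound of 0.512 TPM. The posterior SDs of the beta genes had medians of 0.30 and 0.27 counts, beside 1.87 and 1.84 in the gamma cluster.

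In the alpha cluster, PCDHA9 alone had counts in both replicates, at 2.00 and 2.08 (0.04 and 0.05 TPM). Stretches of its listed transcripts also occurred in 225 genes that are not members, beside at most 2 for any other alpha gene. Its deposited lengths were 6388 and 6293 nt, beside 5377 nt in GENCODE for its 4-exon transcript. Whether these traits have a part in its counts was not tested. PCDHA11 had 2.00 counts in replicate 1 only. PCDHA10 (2.54 counts), PCDHA1 (2.00), PCDHA13 (1.20), PCDHA6 (1.00) and PCDHA4 (0.18) had counts in replicate 2 only. The higher alpha sum in replicate 2 thus rested on 6 genes with at most 2.54 counts each. The upper bounds of the TPM intervals reached at most 0.359 in this cluster.

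To compare the libraries gene by gene, rounded expected counts were set against library sizes scaled by TMM in an exact binomial test (two-sided), and p-values were adjusted by the Benjamini-Hochberg method over the 17920 genes whose counts summed to 10 or more. This test compares the libraries, not conditions. Of all tested genes 3.87% differed. Only 8 members, all in the gamma cluster, had enough counts to be tested, and 0 of them passed the adjusted threshold of 0.05. At an unadjusted p under 0.05, which 13.3% of all tested genes reached, there were 2, PCDHGB1 (exact binomial p = 0.00202, adjusted p = 0.0510) and PCDHGA7 (exact binomial p = 0.0195, adjusted p = 0.225), and they lay in opposite directions. The test takes each rounded count as an independent read, whereas the low gamma counts came in steps of 1.91. The p-values of these 2 genes can therefore be too small. PCDHGC3 had an adjusted p of 1.00, PCDHGA11 of 0.949 and PCDHGC4 of 0.644 in this exact test. The table of the pooled reads matched the summed replicates (tolerance 1% or 1 count) in 50 of 51 members, the exception being PCDHB10 with 2.22 pooled counts beside a sum of 3.28. Many members had so few counts that a tolerance of 1 count made a match likely. PCDHA11, for example, matched with 1.17 pooled counts beside a sum of 2.00. The pooled gamma total was 454.0 beside a sum of 454.02.

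The promoters of the 3 highest genes are shown because a member's level starts from its own promoter. The 250 bases before the RefSeq start are given on the plus strand of GRCh38.p14, 5′ to 3′, with the letters CGCT in capitals. CGCT is the core of the conserved sequence element of many, but not all, clustered protocadherin promoters, near which CTCF is known to bind. The letters alone do not show that a promoter holds this element, since CGCT occurred on either strand in 71.9% of all genes.
PCDHGC3, chr5:141475716-141475965: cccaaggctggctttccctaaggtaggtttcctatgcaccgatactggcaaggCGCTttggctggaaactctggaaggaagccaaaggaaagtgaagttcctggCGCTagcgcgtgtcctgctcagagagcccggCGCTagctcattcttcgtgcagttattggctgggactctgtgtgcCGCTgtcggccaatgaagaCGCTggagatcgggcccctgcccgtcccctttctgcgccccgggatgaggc
PCDHGC4, chr5:141484780-141485029: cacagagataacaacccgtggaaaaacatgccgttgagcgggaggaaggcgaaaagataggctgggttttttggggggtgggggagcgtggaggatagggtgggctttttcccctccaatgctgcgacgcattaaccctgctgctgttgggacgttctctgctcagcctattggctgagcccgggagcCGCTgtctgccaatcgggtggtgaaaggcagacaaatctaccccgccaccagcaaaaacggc
PCDHGA11, chr5:141420801-141421050: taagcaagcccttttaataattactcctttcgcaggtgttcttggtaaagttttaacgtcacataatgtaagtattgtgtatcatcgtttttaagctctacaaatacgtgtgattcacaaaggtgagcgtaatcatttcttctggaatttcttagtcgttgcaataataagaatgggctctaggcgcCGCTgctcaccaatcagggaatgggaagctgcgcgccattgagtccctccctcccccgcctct

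RefSeq windows of 300 bases (250 before and 50 after the start) were matched for 47 of 53 members. PCDHA3, PCDHA13, PCDHB6, PCDHB11, PCDHGA12 and PCDHGC5 had no entry. CGCT occurred on either strand in 46 of 47 member windows and in 71.9% of the windows of 27305 genes. A longer form, TGNCGCT, was chosen after these promoters had been looked at. It occurred on either strand in 32 of 47 members (68.1%) and in 3538 of the 27305 genes. By cluster these were 11 of 13 alpha, 13 of 14 beta and 8 of 20 gamma genes. Of the promoters of PCDHGC3, PCDHGC4 and PCDHGA11 shown above, that of PCDHGC3 alone held TGNCGCT on the sense strand. The stretches below show it in capitals with 12 bases on either side, for 3 genes of each cluster (GRCh38.p14, plus strand, 5′ to 3′).
PCDHA1, chr5:140786087-140786117: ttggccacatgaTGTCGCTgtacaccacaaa
PCDHA7, chr5:140834173-140834203: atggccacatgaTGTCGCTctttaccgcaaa
PCDHA12, chr5:140875245-140875275: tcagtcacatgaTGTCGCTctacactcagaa
PCDHB2, chr5:141094545-141094575: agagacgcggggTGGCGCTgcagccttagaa
PCDHB3, chr5:141100394-141100424: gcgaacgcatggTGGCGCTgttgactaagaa
PCDHB13, chr5:141213866-141213896: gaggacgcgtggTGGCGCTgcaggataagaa
PCDHGA3, chr5:141343768-141343798: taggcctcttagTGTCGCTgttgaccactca
PCDHGB3, chr5:141370163-141370193: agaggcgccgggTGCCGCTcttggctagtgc
PCDHGC3, chr5:141475881-141475911: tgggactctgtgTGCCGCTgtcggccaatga

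Longer forms, also chosen after these windows had been looked at, were counted by cluster. GATGTCGCT, which contains TGNCGCT, was found in 9 of 13 alpha windows, no beta or gamma window, and 0.128% of all genes on either strand. GTGGCGCT, which also contains it, was found in 13 of 14 beta windows and no alpha or gamma window, beside 1.38% of all genes. CCGCTGT, which overlaps the core, was found in 11 of 20 gamma windows and no alpha or beta window, beside 4.72%. Gamma genes also held TGTCGCT, the form in the alpha genes (PCDHGA3, PCDHGA4 and PCDHGA5), and TGGCGCT, the main form in the beta genes (PCDHGB4, PCDHGB5 and PCDHGC3). The beta gene PCDHB4 held TGTCGCT besides TGGCGCT. On the sense strand, and counted from the start at 0, TGNCGCT began at positions -84 to -41 in alpha genes (median -54.5), -82 to 0 in beta genes (median -63.5) and -149 to -41 in gamma genes (median -48.5). TATAAA was found in 6 of 47 members and 3819 of the 27305 genes. These are matches of letters in fixed windows, not measurements of binding.

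The windows of the members were poor in G and C. The median GC content was 37.3% in the alpha, 40.8% in the beta and 42.0% in the gamma cluster, beside 58.3% over all genes, and the median number of CpG was 7, 7.5 and 7, beside 14. Relative to the number expected from the C and G content, the median CpG ratio was 0.593, 0.631 and 0.527, beside 0.580. The windows of PCDHGC3 (59.0% GC, 18 CpG) and PCDHGC4 (60.7%, 23 CpG) lay above the median of all genes, and that of PCDHGA11 (44.3%, 12 CpG) lay below it. PCDHAC1 (66.0% GC, 27 CpG) and PCDHAC2 (63.0%, 15 CpG), which had no counts, also lay above the median of all genes in both measures. Whether base composition has a part in the level of a member was not tested.

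The low values of the clusters stood between well expressed neighbours. TAF7, a subunit of the general transcription factor TFIID that lies between the beta and gamma clusters on the opposite strand, had 38.49 and 37.63 TPM. SLC25A2, a mitochondrial ornithine carrier gene at the same place, had 0.10 TPM in both replicates. Before the alpha cluster, HARS1, encoding a histidyl-tRNA synthetase, had 68.67 and 72.22 TPM and the zinc finger gene ZMAT2 had 69.93 and 67.34. After the gamma cluster, DIAPH1, an actin nucleator of the formin family, had 77.69 and 70.38 TPM, and the histone deacetylase gene HDAC3 had 115.28 and 105.29. The protocadherin pseudogenes of the locus, PCDHA14, PCDHB17P, PCDHB18P, PCDHB19P and PCDHGB8P, had 0 to 1.10 counts. Another pseudogene, AC005618.1, had 0 and 2.45. AC005609.1, annotated as protein-coding on the opposite strand inside the alpha cluster, had 5.00 counts in replicate 1 and 0 in replicate 2. The strand setting of the counting is not known here, so reads of opposite strands may not be separated there.

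**Figure D3:**
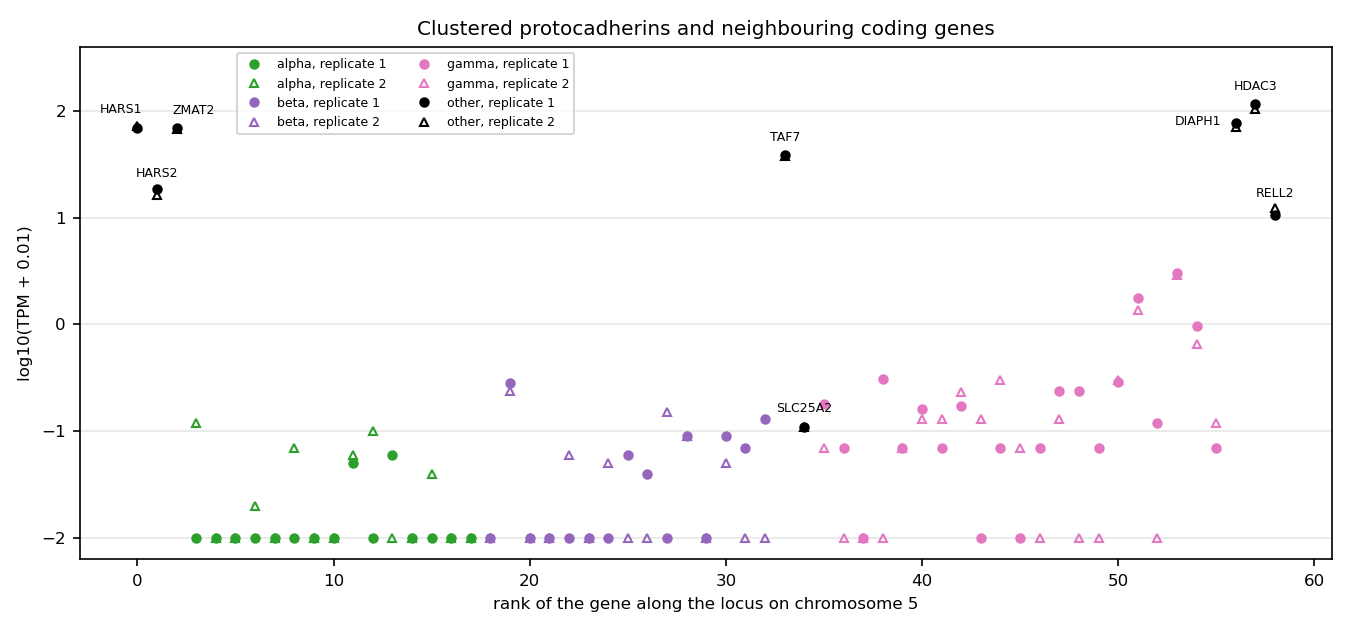
TPM of the measured members and of neighbouring coding genes by rank along the locus, as log10(TPM + 0.01), with filled circles for replicate 1 and open triangles for replicate 2. Coding genes outside the clusters are black. TAF7, between the beta and gamma clusters, stands at 38.49 and 37.63 TPM, and the 3 highest members lie at the far end of the gamma cluster.

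Genes of a list of regulators were expressed at higher levels than any clustered member. The list also holds TAF7, the neighbour of the clusters named above, and not every gene on it is known to control them. Of 29 listed regulators 28 were measured, and all 28 reached 1 TPM in both, beside 63.7% of protein-coding genes, with a median of 45.9 TPM and a range of 12.6 to 612. CTCF, the insulator protein that binds the promoters and enhancers of the clusters, had 54.16 and 55.45 TPM. Of the cohesin subunits, RAD21 had 87.37 and 102.57, SMC3 79.18 and 78.42, and STAG2 131.21 and 121.30 TPM, and the cohesin release factor WAPL had 37.77 and 37.26. The repressors were also measured. SMCHD1, an SMC-like protein that silences the clusters in mice, had 40.74 and 32.02 TPM, the histone methyltransferase SETDB1 had 46.01 and 37.81, and the de novo DNA methyltransferase DNMT3B had 23.12 and 20.30. REST, a repressor of neuronal genes, had 22.30 and 28.43 TPM. In the test between libraries 1 of 28 regulators was higher in replicate 2 (RAD21, edgeR TMM scaling and exact binomial adjusted p = 0.00201) and 0 were higher in replicate 1, beside 3.87% of all tested genes that differed.

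Known partners of clustered protocadherins were present too, with 27 of 27 measured genes of a signalling list at 1 TPM or more in both libraries (1.54 to 250.7 in mean TPM, of 29 listed), beside 63.7% of protein-coding genes. The protease gene ADAM10, which sheds the ectodomain, had 24.67 and 34.62 TPM. PTK2, encoding the focal adhesion kinase that the cytoplasmic domains inhibit, had 61.36 and 71.63 TPM, whereas its relative PTK2B had 2.21 and 1.73. AXIN1, the partner of PCDHGC3, had 24.02 and 21.33. Between the libraries, RAC1 was higher in replicate 2 and APH1A in replicate 1 (exact binomial adjusted p = 0.0207 and 0.0414), beside the 3.87% of all tested genes.

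Protocadherins and related cadherins outside the clusters gave higher values than most clustered members. Of 15 measured genes of that list 9 reached 1 TPM in both replicates (63.7% of all protein-coding genes did), with a median of 1.51 TPM. PCDH9 had 32.57 and 34.23 TPM, PCDH7 had 29.89 and 27.45, and PCDH10 had 16.94 and 16.76. Each of these 3 genes exceeded the summed TPM of all clustered members in both replicates. Of 19 other cadherins 4 were detected, CDH2 (N-cadherin, 43.16 and 50.72 TPM), CDH24 (5.96 and 5.67), CDH1 (E-cadherin, 2.57 and 2.87) and CDH3 (1.29 and 1.47), and 6 had no counts. CDH2 was higher in replicate 2 (exact binomial adjusted p = 0.0469). As a check of the labelled tissue, 4 of 14 measured kidney genes were detected (SIX2, WT1, LRP2 and PAX2), among them the proximal tubule marker LRP2 at 8.28 and 9.96 TPM. Of other nephron segment markers, SLC34A1, AQP2, UMOD and SLC12A3 had no counts, AQP1 had 5 and 8, CUBN 6 and 8, and SLC12A1 1 and 2. Of 11 measured neuronal genes 6 were detected, led by UCHL1 (250.77 and 255.52 TPM), and STMN2 had no counts.

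**Figure D4:**
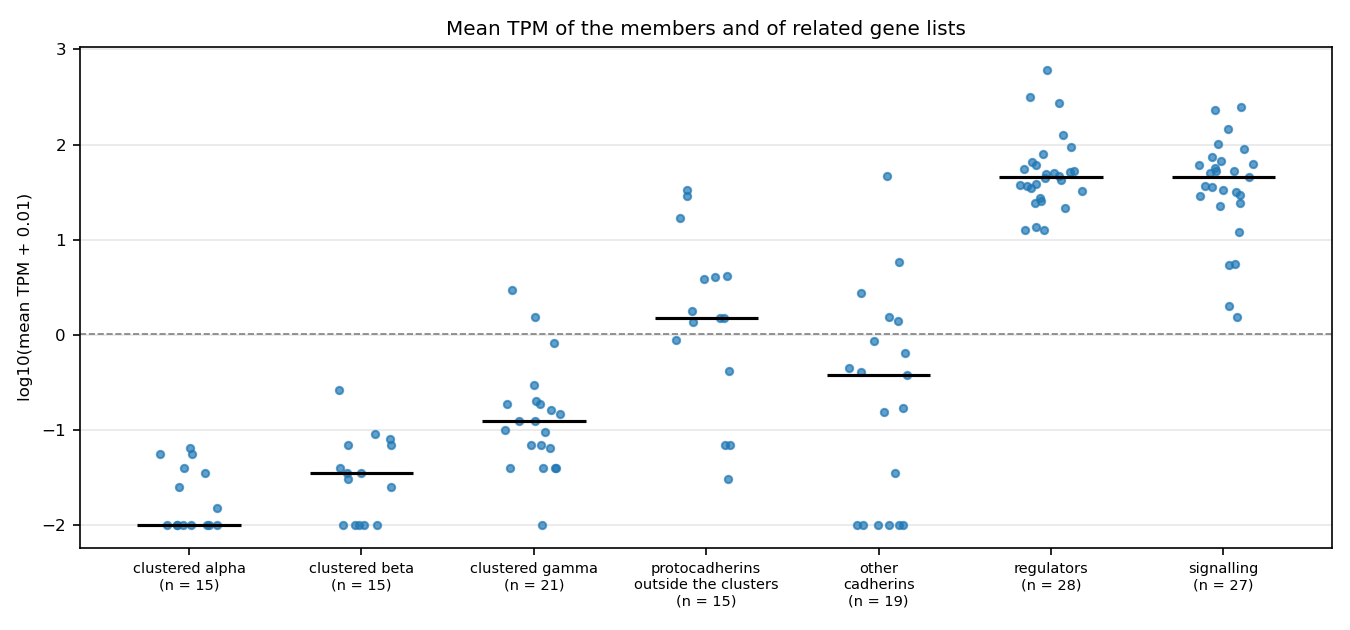
Mean TPM over both replicates of each gene, as log10(mean TPM + 0.01), for the 3 clusters and for the lists of protocadherins outside the clusters, other cadherins, regulators and signalling genes. Each point is a gene, black lines are medians and the dashed line is 1 TPM. All 28 regulators and 27 signalling genes lie above the line, while 2 clustered members do.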

How the data were processed

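Poly(A)+ RNA of HEK293T cells was sequenced in 2 libraries with 50-base reads. Per the submitters' processing notes, Trimmomatic 0.36, STAR 2.6.1c and RSEM 1.3.1 were used with hg19 (GRCh37.p13). The study's methods name featureCounts, whereas the columns are those of RSEM. Expected counts as deposited are estimated reads per gene. TPM and FPKM values were scaled by transcript length by the authors. The posterior SDs and interval bounds are scores deposited by the authors. Whether strand was used: not given in the sources used here.

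Symbols and GRCh37 coordinates came from GENCODE 44 (96.1% of 57736 identifiers matched), and promoters from RefSeq (GRCh38.p14). Both libraries formed 1 group. Detection meant a TPM of at least 1 in both. The libraries, of 10593491 and 10104118 expected counts, were compared by an exact binomial test (scipy 1.17.1) on rounded counts with TMM sizes from edgeR 4.0.16 in R 4.3.3 and a summed count of at least 10. The test was tested on simulated counts that held counting error only, with changes placed in genes with higher counts. That trial does not show how the test treats changes in the low, divided counts of most members. Stretches of 50 nucleotides were compared over GENCODE sequences of the listed transcripts, whose lengths can differ from those the authors used. A gene with several RefSeq windows counted as holding a motif if any window did, and its first window gave its composition.

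Any member, gene of the locus or gene of 6 lists (regulators, signalling, protocadherins outside the clusters, other cadherins, kidney and neuronal markers) could be named. The members, lists and tests were chosen with earlier results of these data known. Alternatives were other thresholds and units, DESeq2 size factors, total counts, other count minimums, posterior means and leaving out each replicate. Some genes of these lists are not reported here by name.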

Additional observations from a re-analysis of the deposited data

How the results depend on the processing

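The number of members detected was 8 at a TPM of at least 0.1, 0 at a TPM of at least 5 and 1 at an FPKM of at least 1, beside 2 as reported. It was 3 with at least 10 expected counts and 2 by the posterior mean TPM or without either replicate. All 28 measured regulators were detected under each of these settings. With a lower bound of at least 0.1 TPM 3 members passed, and without one or the other replicate 1 or 2 did, the added gene without replicate 2 being PCDHGA11. The gamma share of the clustered TPM was 91.8% in expected counts and 73.4% by the posterior mean TPM, and without one or the other replicate it was 87.4% to 90.9%. The beta share was 5.44% in expected counts and 14.4% by the posterior mean TPM, with 7.86% to 8.08% without a replicate. The alpha share was 12.3% by the posterior mean TPM, with 1.05% to 4.74% without a replicate. The cause of these shifts was not tested. In no setting of the test between libraries did a member pass, and the lowest adjusted p over these settings was 0.0503 with total counts and 0.590 with a summed count of at least 50. The weighted length of PCDHGA11 was 3335.14 to 3748.4 nt without one or the other replicate. Chosen after seeing the data, the posterior mean TPM of PCDHGC3 was 2.59 beside 2.96.

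No paired analysis was possible because there is a single group. Depth limits the low members, since up to 3 counts are compatible with 0. The reads of shared exons limit single alpha and gamma values, and 2 libraries limit every SD.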
